A study of Mus musculus with 4 samples.

Results

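Fibronectin (Fn1), tenascin C (Tnc), periostin (Postn), thrombospondins 1 and 2 (Thbs1, Thbs2), osteonectin (Sparc), the lysyl oxidases Lox and Loxl2, and the membrane protein Lrrc15 were followed in single cells of 4T1 tumours of the mouse. Members were named by gene symbol, with earlier results of these data known, and each of the 9 was found as 1 row among the 55450 genes of the expression matrix. Their unique molecular identifiers (UMIs, 1 for each captured RNA molecule) were counted over the 32133 of 33064 cell barcodes that had at least 300 genes and at most 15% mitochondrial UMIs. Fibroblasts were the cells in which Col1a1, Col1a2 and Col3a1 together gave at least 1% of UMIs. There were 2979 of them, and 127 that also passed the gate of another cell type were set aside, which left 2852. Of these, 948 held at least 1 Lrrc15 UMI and are called Lrrc15-positive, and 1904 held none. With the 127 cells set aside included, the collagen gate held 5365 Lrrc15 UMIs, and without them 4851.

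Matricellular proteins are secreted into the extracellular matrix, where they bind cells, growth factors and structural fibres and tune adhesion rather than carry load. Lysyl oxidases oxidise lysine residues of collagen and elastin, the step that starts covalent crosslinking and stiffens a tumour. LRRC15 is a leucine-rich repeat protein of the cell surface that marks a class of activated, myofibroblast-like cancer-associated fibroblasts in several carcinomas.

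4T1, a metastatic mammary carcinoma line of BALB/c origin, was grown in the right flank of female BALB/c mice aged 6 to 8 weeks after injection of 1000000 cells. On day 7 the mice were given, into a vein, either PBS (group PBS, replicates 1 and 2) or TIOs, a nanosystem built on dead macrophages that carry nanoparticles (group TIOs+NIR3), and a further sample, whose labels disagree about PBS or TIOs, was placed in no group. By their labels all 4 tumours had daily light at 980 nm (1.0 W per cm2 for 5 min) from day 8 to day 10, those given PBS included, and were taken on day 13. 1 matrix holds all 4, its barcodes carry 4 suffixes (libraries 1 to 4 here) that no label ties to a sample, and the cells are therefore treated as 1 pooled sample with no test between treatments. No p-value is given, and every interval is a 95% interval of counting error only. All 4 tumours came from this 1 line.

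The libraries held 69255999 to 108646352 UMIs, and the kept cells had medians of 2641.5 to 11698 UMIs. Library 1 stood apart: it held 3637 of the 3784 cells in the tumour gate but only 124 fibroblasts, against 1317, 598 and 813 in libraries 2, 3 and 4. Of the deposited barcodes, 101 occurred in more than 1 library, and 0 were fibroblasts in both. The fibroblasts carried the markers of their class, with decorin (Dcn) at 4510 and Pdgfra at 334.7 UMIs per 1000000 UMIs of the group (CPM), against 127 and 9.23 in neutrophils. The cells had been sorted for the leucocyte antigen CD45, as the methods have it. Its gene Ptprc stood at 16.7 CPM in fibroblasts and 712 in neutrophils, so the fibroblasts were far below these leucocytes in the marker of the sort. The epithelial gene Epcam stood at 2.82 CPM in fibroblasts and 959 in tumour cells. A level below is the summed UMIs of a gene in a group of cells as CPM of that group, and levels are set against each other between groups of cells, not between genes.

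All fibroblasts as 1 group held the highest level of 7 of the 9 genes among 14 gated cell groups, which was so for 8.34% of the 7132 genes with at least 50 CPM in a group. Thbs1 led in monocytes and Fn1 in tumour cells. With Lrrc15-positive and Lrrc15-negative fibroblasts as groups of their own, the positive cells led for Fn1 too. This made 8 of 9 among 15 groups, against 8.92% of genes. Lrrc15 is among the 8, and its level in the positive cells follows from the split. Lox had the widest gap between fibroblasts and the next group, and Fn1 and Thbs1 had the narrowest.

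Fn1 (chromosome 1, 71585520 to 71653200, minus strand, GRCm38) encodes the fibril-forming glycoprotein on which other matrix proteins assemble. In the fibroblasts of libraries 1 to 4 it stood at 2381, 2001, 1136 and 917 CPM. All fibroblasts together had 1435 CPM, below the 1490 of tumour cells (1482 to 1499, 3784 cells), which lay between 1603 in Lrrc15-positive and 1332 in Lrrc15-negative fibroblasts. The intervals of the last 3 groups did not overlap, but the order rested on the library: within libraries 1 and 2 the Lrrc15-negative fibroblasts led with 2810 and 2098 CPM, and without library 2 tumour cells led. Macrophages (744) and monocytes (619) followed, ahead of pericytes or smooth muscle (583), with the last 2 intervals overlapping.

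Tnc (chromosome 4, 63959785 to 64047015, minus strand) encodes a hexameric glycoprotein of wounds and tumour stroma. It stood at 1999, 1128, 960 and 284 CPM in the fibroblasts of libraries 1 to 4, so library 4 was far below the others. Outside fibroblasts the highest levels were 216 CPM in 133 pericytes or smooth muscle cells and 153 in 308 endothelial cells. The endothelial value differed between libraries, with 35.5, 102 and 468 CPM in libraries 1, 2 and 3. Tumour cells had 30.8 CPM.

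Postn (chromosome 3, 54361109 to 54391037, plus strand) encodes a matricellular protein that binds collagen and integrins. Its fibroblast levels were 1958, 1081, 548 and 348 CPM in libraries 1 to 4, and pericytes or smooth muscle came next with 348 (322 to 375). The keratinocyte-like cells, all 95 of them in library 1, had 121 CPM. All leucocyte groups were at or below 22.4 CPM.

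The paralogues Thbs1 and Thbs2, both of which encode thrombospondins that inhibit angiogenesis, were distributed differently. Thbs1 (chromosome 2, 118111876 to 118127133, plus strand) stood at 550, 701, 587 and 160 CPM in the fibroblasts of libraries 1 to 4. It stood at 728 CPM (718 to 738) in 3682 monocytes and 654 (618 to 691) in pericytes or smooth muscle. The pericytes or smooth muscle of library 2 were below its fibroblasts, with 528 against 701 CPM. Those of library 3 were above its fibroblasts, with 995 against 587 CPM. The monocytes of library 1 were low, with 102 CPM against 748, 700 and 745 in libraries 2, 3 and 4, and the leading group changed to pericytes in library 3 and to Lrrc15-positive fibroblasts in library 1. Thbs2 (chromosome 17, 14665500 to 14694235, minus strand) was a gene of fibroblasts, at 1060, 419, 329 and 237 CPM in the 4 libraries. It stood at 73.6 CPM in pericytes or smooth muscle and 9.54 in monocytes.

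Sparc (chromosome 11, 55394500 to 55423183, minus strand), which encodes a collagen-binding protein that aids fibril assembly, was detected in 99.5% of fibroblasts. Its levels there were 15180, 12720, 8398 and 6959 CPM in libraries 1 to 4. It was also high in the vessel wall, with 6558 CPM in pericytes or smooth muscle and 4417 in endothelial cells, and no other gated group exceeded the 249.6 CPM of neutrophils.

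Lox (chromosome 18, minus strand) encodes the founding lysyl oxidase. Its fibroblast levels, 907, 1417, 1204 and 908 CPM in libraries 1 to 4, varied least between libraries apart from those of Loxl2. Pericytes or smooth muscle had 64.3 CPM and tumour cells 4.43. Loxl2 (chromosome 14, 69609068 to 69695834, plus strand), which acts on collagen IV and has been tied to invasion, stood at 334, 463, 380 and 466 CPM in fibroblasts. Unlike Lox it was well represented in pericytes or smooth muscle, with 245 CPM (224 to 268), and stood at 32 in endothelial cells.

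Lrrc15 (chromosome 16, 30269302 to 30283256, minus strand) was the rarest of the 9, with 6247 UMIs in 4.52% of cells. In fibroblasts it stood at 467, 93.5, 19.0 and 14.9 CPM in libraries 1 to 4, and 79.8% (71.7 to 86.5), 42.2%, 21.1% and 20.5% of the fibroblasts held a UMI. After each cell was thinned to 1000 UMIs, 32.5% of the fibroblasts of library 1 still held one, against 8.11% in library 2, 1.02% in library 3 and 1.12% in library 4. The next gated group was pericytes or smooth muscle, with 31 UMIs (16.1 CPM) in only 6 of its 133 cells. Of these UMIs library 2 gave 2 and library 3 gave 0 (up to 7.57 CPM). The rest came from libraries 1 and 4, which held 16 and 13 such cells. In neutrophils 0.277% of cells held an Lrrc15 UMI at a median of 1821 UMIs per cell, against 33.2% of fibroblasts at a median of 27284.5.

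**Figure D1:**
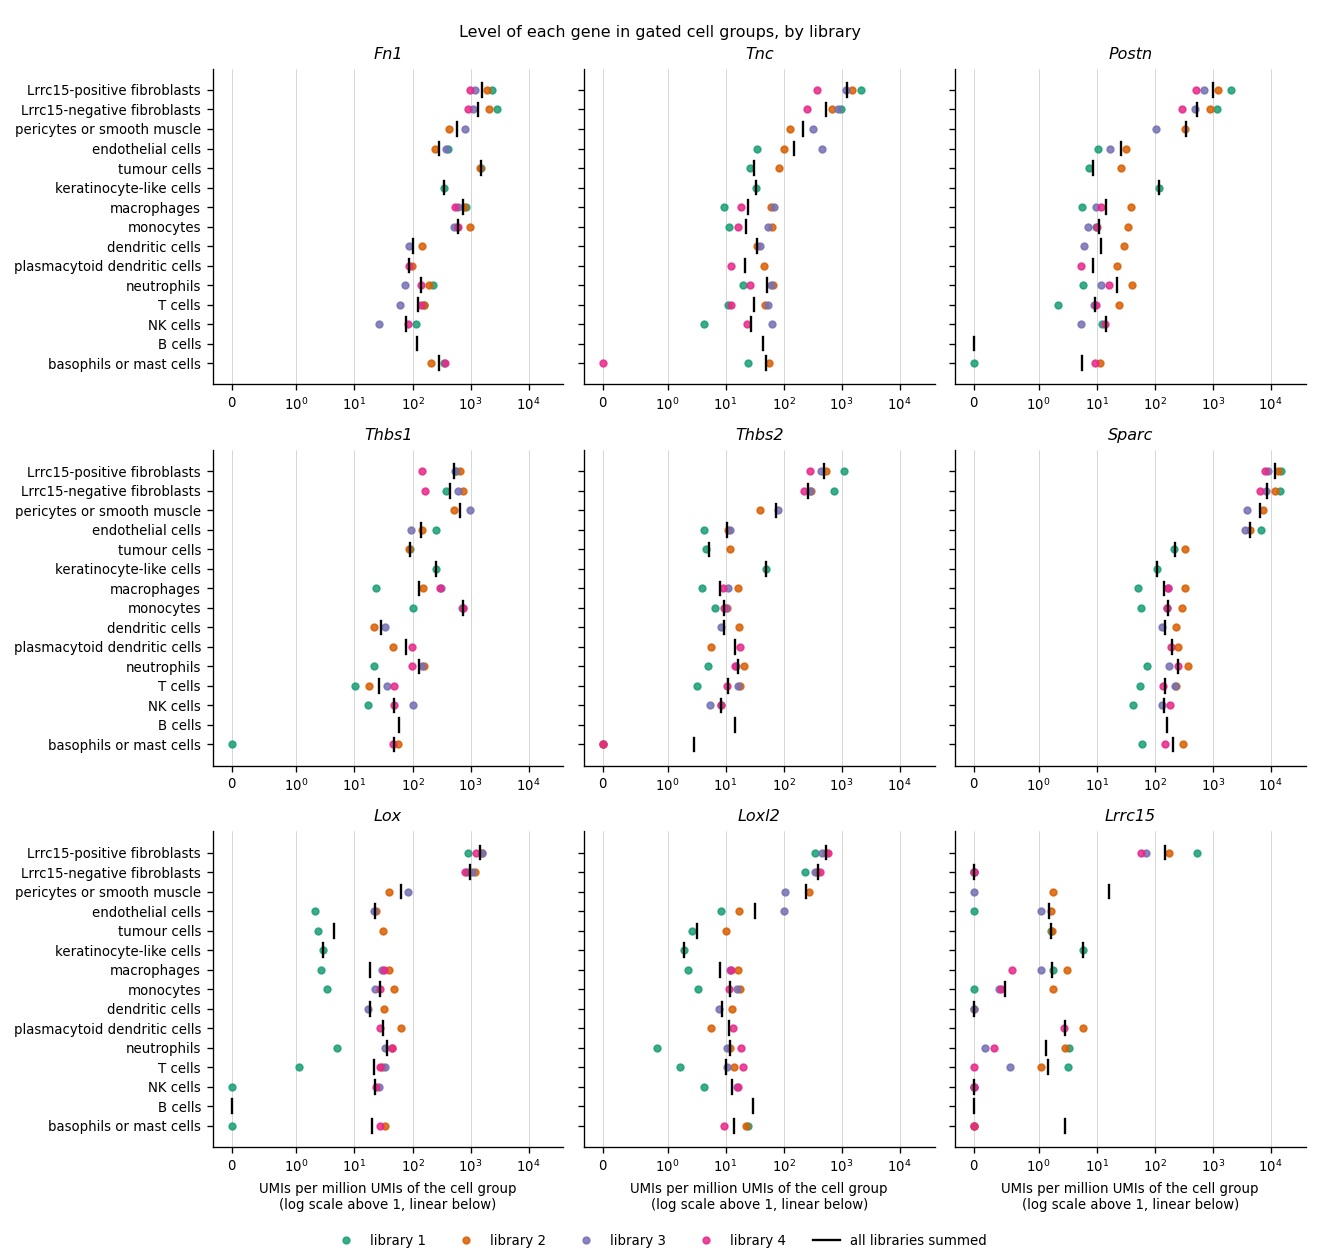
Level of the 9 genes in gated cell groups: each point is a library, each black tick all libraries summed, and the horizontal axis is the level in CPM (logarithmic above 1). Fibroblasts lie at the right for Tnc, Postn, Thbs2, Lox, Loxl2 and Lrrc15, and tumour cells reach them for Fn1. In the summed levels monocytes and pericytes pass them for Thbs1, though not in every library. Endothelial cells and pericytes approach them for Sparc.

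Fibroblasts were 8.88% of cells and gave 23.3% of all UMIs. They gave 82.97% of the Postn UMIs, 78.1% of Lox, 77.7% of Lrrc15, 75% of Sparc, 73.3% of Thbs2, 72.0% of Loxl2 and 58.9% of Tnc. Fn1 (32.1%) and Thbs1 (37.0%) had most of their UMIs elsewhere. Tumour cells gave 31.8% of the Fn1 UMIs and monocytes 20.1% of the Thbs1 UMIs. Another 20.4% of the Tnc UMIs, 16.9% of Loxl2, 14.7% of Thbs2 and 13.8% of Lox came from 1168 cells in which the 3 collagen genes gave 0.3 to 1% of UMIs, just below the gate. The Fn1 share depended on which library was kept: it was 51.2% without library 1, which held most tumour cells, and 20.2% without library 2, which held the most fibroblasts. The Thbs1 share was 22.0% without library 2.

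**Figure D2:**
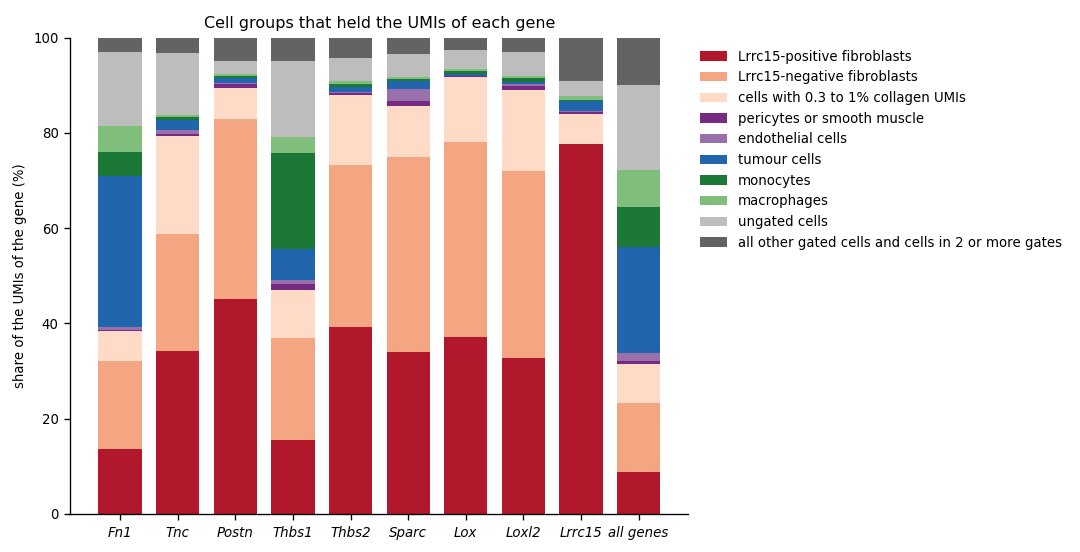
Share of the UMIs of each gene (vertical axis, %) that lay in each group of cells, as stacked bars, all libraries summed. The fibroblast segments take 82.97% of Postn and 32.1% of Fn1, and Fn1 is shared with tumour cells.

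Levels outside fibroblasts can hold free RNA from lysed fibroblasts that entered other droplets. As a measure of this, each gene was divided by the collagen UMIs (Col1a1, Col1a2 and Col3a1) of the same cells. The result was set against the same ratio in the fibroblasts of that library, where 1 means that the gene came with collagen in fibroblast proportions. The same 3 genes define the fibroblast gate, so the reference ratio is partly set by the selection of cells. In neutrophils Lox lay between 0.957 and 1.38, Sparc between 0.825 and 1.23 and Postn between 0.744 and 1.17 in the 4 libraries. These 3 of the 9 genes stayed within 1.5-fold of the fibroblast ratio in every library. The share of all genes that did so was not counted. Tnc was 1.83 to 2.98 in neutrophils. Cells just below the gate, which gave 20.45% of the Tnc UMIs, were not in the reference. Lox lay at 1.07 and 1.12 in the tumour cells of the 2 libraries that held them, so its 4.43 CPM there came with collagen in nearly fibroblast proportions. Well above the fibroblast ratio were Fn1 in tumour cells (35.5 to 272), Thbs1 in monocytes (40.6 to 160), Fn1 in monocytes (18.9 to 73.5) and Sparc in endothelial cells (17.8 to 265). Endothelial Tnc lay at 4.65 to 41.8. Lox in pericytes or smooth muscle was below the fibroblast ratio, at 0.350 and 0.562.

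**Figure D3:**
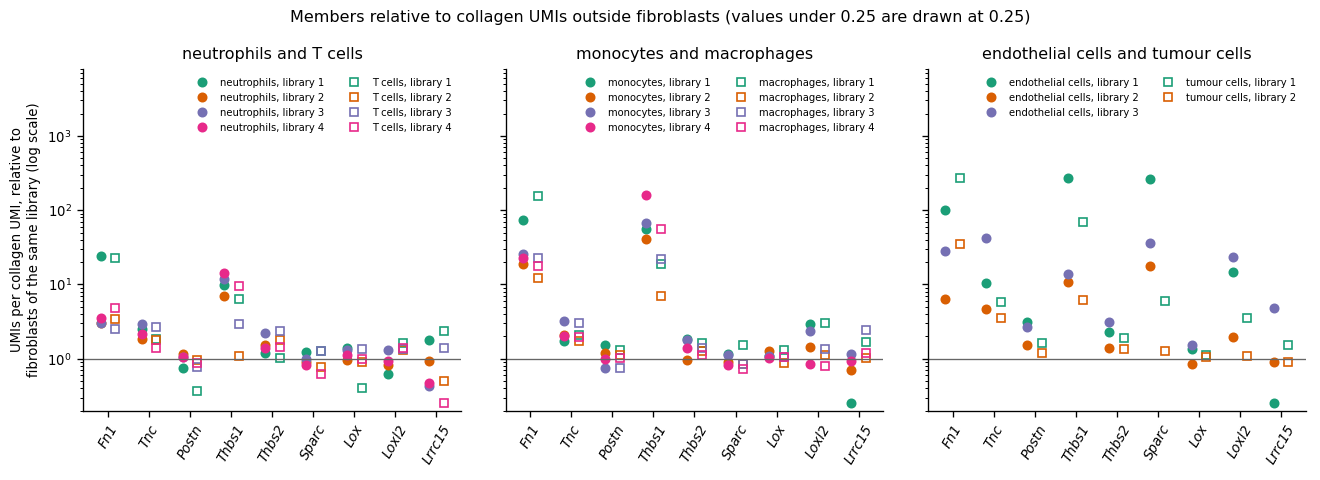
UMIs of each gene per collagen UMI in cells other than fibroblasts, relative to the fibroblasts of the same library (vertical axis, logarithmic; 1 is the fibroblast ratio), with a point for each library. Neutrophil points lie near 1 for Postn, Sparc and Lox, and Fn1 in tumour cells, Thbs1 in monocytes and Sparc in endothelial cells lie well above it.

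Library 1 allowed the stroma and the carcinoma cells of the same library to be compared. Fibroblasts (124 cells) exceeded tumour cells (3637 cells) by at least 1.5-fold in all 9 genes, where 26.9% of 6640 tested genes did so. The fold was 389 for Lox, 281 for Lrrc15, 269 for Postn, 229 for Thbs2, 124 for Loxl2, 74.95 for Tnc and 71.5 for Sparc. For Thbs1 it was 6.18 (5.80 to 6.58), and for Fn1 only 1.59 (1.55 to 1.64). In library 2, with 145 tumour cells, Fn1 was 1.38-fold (1.35 to 1.41) higher in fibroblasts and the other 8 genes were 8.02 to 54.2-fold higher. Relative to collagen UMIs, the tumour cells of the 2 libraries were near the fibroblast ratio not only for Lox (1.07 and 1.12) but also for Lrrc15 (0.904 to 1.55), Postn (1.21 to 1.62) and Thbs2 (1.37 to 1.90). In library 2 Loxl2 (1.08) and Sparc (1.29) were near it as well. The part of free RNA in the folds was not tested, and no fold was adjusted for it.

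Fibroblasts with Lrrc15 UMIs were then set against those without. Tnc, Postn and Thbs2 were more abundant in the Lrrc15-positive cells in every library. Lox, Loxl2 and Sparc were also higher in each library, with smaller summed ratios, and Fn1 and Thbs1 were not higher in each. A gene counted as higher or lower from 1.5-fold, among 6134 genes with at least 20 CPM in either group. The level of Lrrc15 itself (153.7 CPM against 0) follows from the split and is only a description.

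Tnc stood at 2131, 1521, 1178 and 371 CPM in Lrrc15-positive fibroblasts of libraries 1 to 4 and at 979, 691, 880 and 255 CPM in Lrrc15-negative ones. The positive cells were the higher in each library, although library 4 was low in both, so the groups overlap when libraries are mixed. The ratio of the summed levels was 2.26 (2.22 to 2.29), and the mean of the log2 ratios within libraries 2, 3 and 4, which had at least 50 cells in each group, gave 1.62-fold.

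Postn stood at 2058, 1238, 707 and 513 CPM in the positive cells and at 1188, 907, 490 and 293 CPM in the negative ones. The summed ratio was 1.93 (1.90 to 1.97) and the within-library mean 1.51. Thbs2 stood at 1102, 529, 451 and 284 CPM in the positive and 732, 297, 285 and 221 CPM in the negative cells, for a summed ratio of 1.87 (1.83 to 1.92) and a within-library mean of 1.54. Both genes were highest in library 1 and lowest in library 4 in either group of fibroblasts, and within a library the positive cells were always the higher.

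For the crosslinking enzymes the summed ratios were smaller than for Tnc, Postn and Thbs2, but not those of every library. In libraries 3 and 4 the ratio of Lox (1.47 and 1.53) exceeded that of Tnc (1.34 and 1.46). Lox was 1.06, 1.31, 1.47 and 1.53-fold higher in libraries 1 to 4 (summed 1.47, 1.45 to 1.49), and the interval of library 1, which had only 25 Lrrc15-negative cells, included 1 (0.912 to 1.23). Loxl2 was 1.51, 1.41, 1.32 and 1.39-fold higher (summed 1.35). Its summed ratio was 1.30 with cells thinned to 10000 UMIs and only 1.04 with cells thinned to 1000. Sparc was 1.06, 1.16, 1.08 and 1.19-fold higher within the libraries, and its summed ratio of 1.35 (1.34 to 1.36) exceeded each of them.

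Fn1 and Thbs1 had summed ratios of 1.204 and 1.162 that the libraries did not share. Fn1 was at 0.828, 0.912, 1.06 and 1.07 in libraries 1 to 4, with a within-library mean of 1.01. Thbs1 was at 1.49 in library 1 and at 0.914, 0.895 and 0.898 in libraries 2, 3 and 4. Its summed ratio fell to 0.947 without library 4, in which fibroblast Thbs1 was lowest.

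Of the 8 genes other than Lrrc15, 3 were at least 1.5-fold higher in the summed levels, where 1.83% of the 6134 genes were, and 0 were at least 1.5-fold lower, where 2.15% were. By the mean within libraries the same 3 (Tnc, Postn, Thbs2) passed, where 0.913% of genes did. Without library 1 Lox joined them. In each of libraries 2, 3 and 4 the level was higher for 6 of the 8, where 22.9% of genes were. The median log2 ratio of the 8 genes was 0.50 (0.49 within libraries), that of all tested genes -0.03 (0.00 within libraries).

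Other quantities moved with the split. The median UMIs per cell were 30145 in the positive and 25060.5 in the negative cells. The gap was wider within each library. The medians of libraries 1 to 4 were 16585, 29032, 34645.5 and 45702 in positive and 6776, 17681, 24521 and 34925.5 in negative cells. The 7 pericyte or smooth muscle markers summed to 346 CPM in positive cells (164 to 1452 over the libraries) and 181 in negative cells (121 to 285), with none at 0, against 16770 in the pericyte gate. This sum was higher in the positive cells of each library, but most of it was Acta2, at 319 CPM in positive and 124.5 in negative cells. In the summed levels the other markers of the list together were lower in the positive cells. The 7 tumour cell markers summed to 72.0 and 25.1 CPM, with none at 0, against 8169 in the tumour gate. Within libraries they were not higher throughout, with 613, 56.5, 9.79 and 16.4 CPM in the positive cells of libraries 1 to 4 and 920, 34.9, 17.5 and 13.1 in the negative ones. Library 1, where they were highest, gave 99 of the 948 positive but 25 of the 1904 negative cells. The 6 neutrophil markers were nearly equal, at 601 and 608 CPM. The part of these markers in the ratios was not tested.

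**Figure D4:**
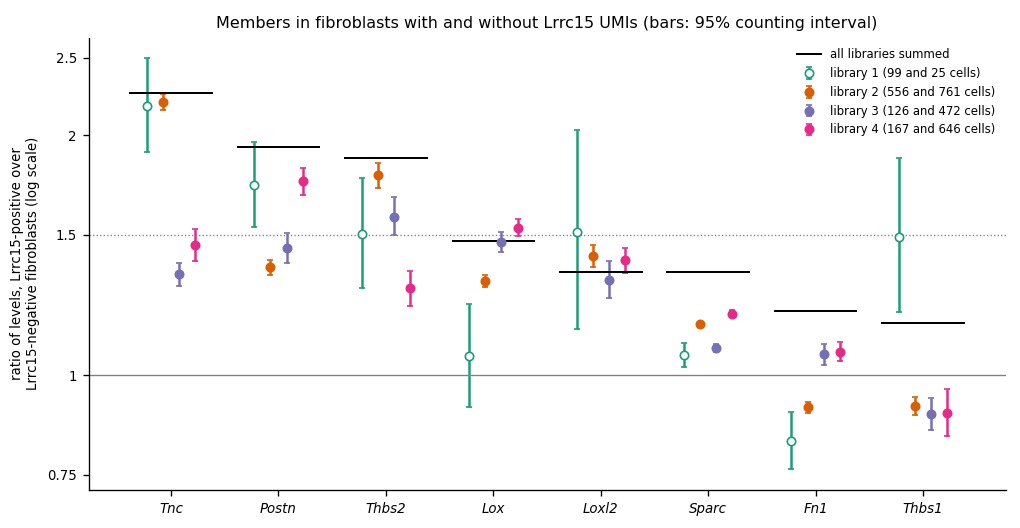
Ratio of the level in Lrrc15-positive over Lrrc15-negative fibroblasts (vertical axis, logarithmic) for 8 genes, with a point and a 95% counting interval for each library and a black line for the summed libraries; the dotted line is 1.5-fold. All 4 points of Tnc, Postn and Thbs2 lie above 1, and those of Fn1 and Thbs1 fall on either side of it.

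A cell with more UMIs in all is more likely to show an Lrrc15 UMI. To set depth aside, the 2391 fibroblasts with at least 10000 UMIs were each thinned to 10000 (461 were left out) and divided by their remaining Lrrc15 UMIs into cells with 0 (1826 cells), 1 (249), 2 (112) and 3 or more (204). Over the pooled libraries Tnc went along these classes from 583 to 961, 1329 and 2069 CPM. Postn went from 653 to 1017, 1147 and 1971 CPM, and Thbs2 from 308 to 427, 501 and 858 CPM. In CPM the step from 2 to 3 or more was the widest for these 3 genes, beyond the counting intervals, but the last class has no upper limit. As a ratio this step was still the widest for Postn and Thbs2, whereas for Tnc that from 0 to 1 was wider. The classes also differed in their libraries. Library 1 gave 52 of the 204 cells with 3 or more, at 2477 CPM for Tnc, 2633 for Postn and 1337 for Thbs2. Libraries 3 and 4 gave 434 and 685 of the 1826 cells with 0. The part of the libraries in the pooled steps was not tested.

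Lox went from 1064 to 1360, 1500 and 1619 CPM and Sparc from 9668 to 12450, 13900 and 15620 CPM. Loxl2 levelled off, with 398, 500, 519 and 543 CPM, the last 3 with overlapping intervals. Thbs1 had 487, 551, 566 and 571 CPM. Of 2 genes outside the set, 1 rose and 1 fell. Col1a1, a gene of the fibroblast gate, went from 8230 to 12990, 15440 and 16590 CPM. Decorin, a collagen-binding proteoglycan, was lower in cells with 3 or more than in cells with 0 (4471 against 5419 CPM).

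Library 2 alone, with 692, 145, 71 and 137 cells in the classes, gave the same order for Tnc (721, 1180, 1520 and 2088 CPM). Thbs2 likewise went from 359 to 454, 538 and 716 CPM there. Postn went from 1043 to 1157, 1173 and 1815 CPM, a smaller difference than in the pooled classes, and its classes with 1 and 2 had overlapping intervals. Fn1 went from 2235 CPM in cells with 0 to 1791 in cells with 3 or more, and Thbs1 from 728 to 618. For both genes this is the reverse of the pooled classes (1507 to 1946 CPM for Fn1). Library 2 held 692 of the 1826 cells with 0 and 137 of the 204 with 3 or more.

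Libraries 3 and 4 had at least 20 cells only with 0 or 1 Lrrc15 UMI. In library 3 (434 and 40 cells) Tnc stood at 819 and 1012 CPM, Postn at 513 and 893, and Thbs2 at 306 and 485. In library 4 (685 and 52 cells) Tnc was not higher with Lrrc15, at 292 CPM with 0 (279 to 305) and 237 with 1 (197 to 282), intervals that overlap, whereas Postn stood at 336 and 604 and Thbs2 at 244 and 273 CPM, the last pair with overlapping intervals.

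**Figure D5:**
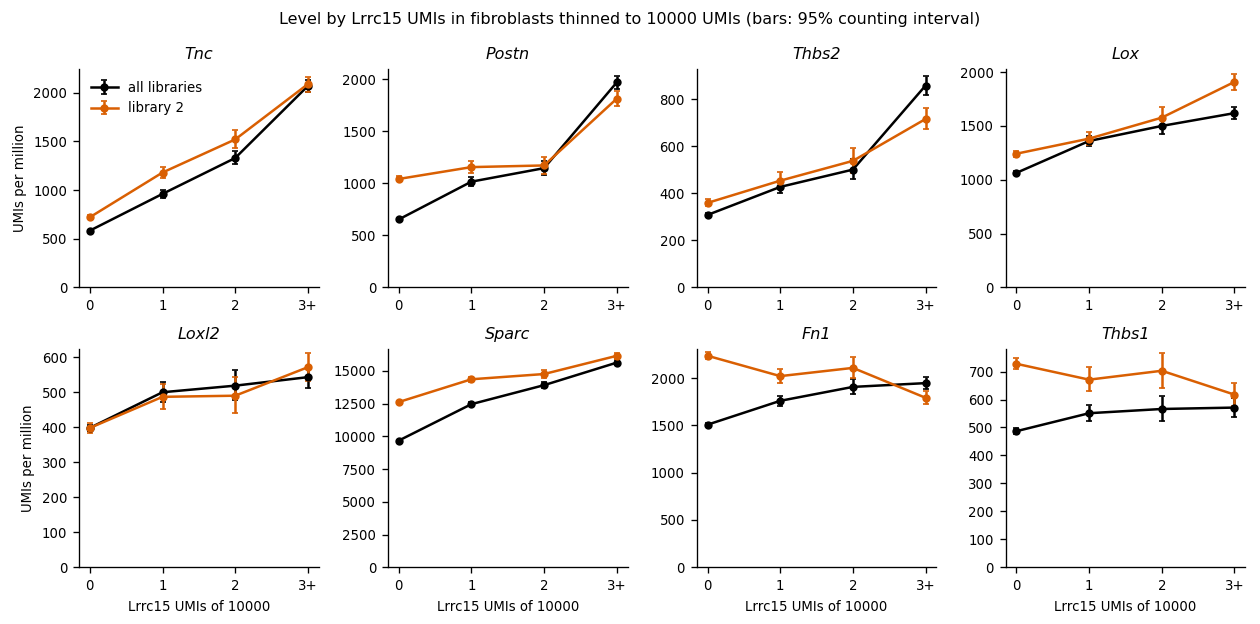
Level of each gene (vertical axis, CPM) in fibroblasts thinned to 10000 UMIs, by the number of Lrrc15 UMIs left (0, 1, 2, 3 or more), with 95% counting intervals, for all libraries and for library 2. Tnc, Postn and Thbs2 are highest at 3 or more in both, and Fn1 and Thbs1 are lower at 3 or more than at 0 in library 2.

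The promoter windows of the 3 genes that were higher by at least 1.5-fold are shown with that of Lrrc15, to let their sequences be compared beside the levels. Each is the 250 bases before the start of the gene in RefSeq (GRCm38.p6), 5′ to 3′ on the strand of the gene, and 5 of the 9 genes (also Sparc) had a window that was used. The windows are chr4:64047016-64047265 (minus) for Tnc, chr3:54360857-54361106 (plus) for Postn, chr17:14694263-14694512 (minus) for Thbs2 and chr16:30283255-30283504 (minus) for Lrrc15. Capitals mark matches on either strand to the letters of 4 motifs. The TATA box was searched as TATAAA. The AP-1 motif was searched as TGANTCA. The TEAD motif was searched as GGAATG. The SMAD motif was searched as CAGAC. No 2 matches overlap in these windows.
Tnc: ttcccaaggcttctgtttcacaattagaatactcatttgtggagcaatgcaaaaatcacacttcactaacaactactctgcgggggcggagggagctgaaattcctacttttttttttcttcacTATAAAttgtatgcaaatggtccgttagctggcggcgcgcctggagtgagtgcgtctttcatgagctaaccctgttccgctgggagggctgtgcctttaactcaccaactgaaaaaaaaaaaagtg
Postn: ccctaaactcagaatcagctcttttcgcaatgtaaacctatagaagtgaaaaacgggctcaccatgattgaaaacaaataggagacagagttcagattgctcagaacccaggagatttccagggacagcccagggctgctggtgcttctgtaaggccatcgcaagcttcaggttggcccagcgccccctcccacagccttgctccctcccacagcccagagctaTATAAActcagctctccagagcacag
Thbs2: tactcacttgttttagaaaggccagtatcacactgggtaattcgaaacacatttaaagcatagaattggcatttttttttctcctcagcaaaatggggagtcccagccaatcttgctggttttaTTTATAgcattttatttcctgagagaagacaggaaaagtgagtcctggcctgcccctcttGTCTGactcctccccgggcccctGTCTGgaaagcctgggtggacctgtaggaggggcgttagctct
Lrrc15: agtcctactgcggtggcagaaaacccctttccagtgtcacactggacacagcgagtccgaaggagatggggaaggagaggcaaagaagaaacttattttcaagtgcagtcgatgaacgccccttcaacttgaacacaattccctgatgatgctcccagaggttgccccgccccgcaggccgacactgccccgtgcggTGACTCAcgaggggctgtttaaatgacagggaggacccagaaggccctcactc
Tnc and Postn each held TATAAA, 126 and 26 bases before the start, and Thbs2 held its reverse complement at 126. Among 32817 promoter windows of this length 12.4% hold this motif. Lrrc15 held TGACTCA at 53 bases before the start, a motif of 6.75% of windows. The SMAD letters, held by 42.2% of windows, occurred in Thbs2 at 66 and 43 bases, and GGAATG (12.6% of windows) was in none of the 4. No motif was shared by all 4, which says only that these letters are not in these windows.

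Genes of related function were read in the same split. Of 78 further matrix genes tested, 12 were at least 1.5-fold higher in the summed levels and 10 lower, against 5 higher and 16 lower by the within-library mean. Among other crosslinking and collagen-modifying enzymes 2 of 10 were higher and 0 lower (median log2 ratio 0.20). These were the prolyl hydroxylase subunits P4ha3 (79.8 against 37.7 CPM) and P4ha2 (272 against 180). Plod2, which hydroxylates lysines before crosslinking, stood at 379 against 292 CPM. By the within-library mean 1 of the 10 was higher, P4ha3, and 1 lower, Tgm2 (log2 ratios of 0.68 and -0.79). P4ha2 (0.52) then fell short of 1.5-fold.

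Other matricellular genes went in both directions, 4 of 19 higher and 4 lower (median 0.34). By the within-library mean 2 were higher and 5 lower (median 0.05). Tenascin N (Tnn) stood at 34.0 against 5.69 CPM, Spon1 at 180 against 95 and osteopontin (Spp1) at 1520 against 862. In the other direction, Comp stood at 3.39 against 20.7 CPM, Smoc2 at 62.3 against 196 and thrombospondin 4 (Thbs4) at 155 against 392. Thus Thbs2 and Thbs4, from the same family, were on opposite sides of the split. Of these, Comp, Smoc2 and Thbs4 were lower in each of libraries 2, 3 and 4, whereas Tnn and Spp1 were lower in library 3 and Spon1 in libraries 3 and 4. The remaining gene of the 4, Spon2 (92.1 against 57.6 CPM), was higher in each of libraries 2, 3 and 4 and lower in library 1.

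Of 8 proteoglycans, all small leucine-rich except versican (Vcan), 0 were higher and 1 was lower (median -0.25). This was fibromodulin (Fmod), which guides collagen fibril growth, at 15.6 against 77.7 CPM. Lumican (Lum) was at 356 against 493 CPM and osteoglycin (Ogn) at 170 against 243.5. By the within-library mean all 3 of these were at least 1.5-fold lower (log2 ratios of -2.89, -0.60 and -0.60), 0 were higher, and the median was -0.47. In library 4, however, Lum and Ogn were not lower (log2 ratios of 0.06 and 0.22). Among 12 matrix receptors Itgb3 was higher (23.9 against 13.7) and Itga11 lower (13.7 against 22.9), with a median of 0.10. By the within-library mean 0 receptors were higher (log2 ratio of 0.28 for Itgb3), and Itga11 was still lower (-0.85). Of 9 genes of TGF-beta storage and signalling Ltbp2, a latent TGF-beta binding protein, was higher (131 against 44.5 CPM) and its relative Ltbp4 lower (16.8 against 35.1), with a median of -0.02.

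Among 20 collagen genes 4 were higher and 3 lower (median 0.09), against 1 higher and 5 lower by the within-library mean. Col12a1, a collagen of the fibril surface, stood at 470 against 174 CPM and was higher in each of the libraries. The basement membrane chains Col4a1 (394 against 763 CPM) and Col4a2 (186 against 358) were lower in libraries 2, 3 and 4 and higher in library 1. Col7a1 had a summed ratio of 8.90 (25.4 against 2.86 CPM) and a mean log2 ratio of only 0.37 within libraries. Col1a1 (11530 against 6833 CPM) and Col1a2 (12590 against 8288) were among the 4 but are genes of the gate. Their levels, and that of Col3a1 among the 20, are partly set by the selection of cells. These gate genes are also counted in the 78 further matrix genes above.

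Genes with the same direction in libraries 2, 3 and 4 and at least 50 CPM in either group were ranked by summed ratio. Genes of the lists above were included. The highest were Tagln (184 against 38.9 CPM) and Nos2 (72.5 against 20.4), followed by Ltbp2, Crabp1, Inhba, Col12a1, Arl4c, Acta2, Cthrc1 and Pcsk5. By the within-library mean the order differed: Crabp1 (2.76-fold), Cthrc1 (2.14) and Ltbp2 (2.06) came first, and Tagln, 4.73-fold higher in the summed levels, was 1.67-fold higher and ranked 12. Tagln and Acta2 are contractile genes of myofibroblasts and smooth muscle, and Acta2 (319 against 124.5 CPM) is also 1 of the 7 pericyte markers above. The lowest were Fmod, Mgp, Apod, Aldh1a2, Smoc2, Entpd2, Thbs4, Scara5, Lpl and Gsn. Of these Mgp, an inhibitor of calcification, stood at 59.6 against 258 CPM, and the lipase Lpl at 503 against 1132. Among the 869 genes of this kind that were higher, Tnc ranked 11, Postn 17, Thbs2 21, Lox 49, Sparc 72 and Loxl2 73 by the summed ratio. By the within-library mean Tnc ranked 16, Thbs2 23, Postn 27, Lox 37, Loxl2 46 and Sparc 269.

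Detection of 2 of the 9 genes in the same fibroblast was counted after each cell was thinned to 1000 UMIs (2803 cells, 49 left out). The share of cells with both genes exceeded the product of the 2 single shares in 31 of 36 pairs, against 50.1% of all pairs among the 2954 genes found in at least 5% of these cells. It did so in each of the 4 libraries in 9 of the 36, against 6.29% of all pairs. Sparc was found in 99.3% of the thinned fibroblasts, so any pair with it is held near a ratio of 1 in advance. Such pairs are counted among the 36. Most ratios to the product were near 1, and the libraries differed in detection, with Lrrc15 in 32.5% of the thinned cells of library 1 and 1.02% of those of library 3. Tnc with Lrrc15 occurred in 3.96% of cells (3.27 to 4.75) against a product of 2.03%, a ratio of 1.96. For this pair the ratio was 1.08, 1.84, 1.98 and 0.571 in libraries 1 to 4, the last from 1 cell. The pooled ratios of Thbs2 and Postn with Lrrc15, 1.60 and 1.53, exceeded those of every library, which were 1.11, 1.30, 1.24 and 1.06 for Thbs2 and 1.11, 1.15, 1.505 and 1.23 for Postn, with at most 3 cells behind each value of libraries 3 and 4. In library 4 the highest ratio was that of Tnc with Thbs1 (1.501). Among pairs without Lrrc15 the pooled ratios ran from 0.976 (Postn with Loxl2) to 1.21 (Postn with Thbs2), and Tnc with Postn was at 0.988.

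The pattern of each gene over the 15 gated groups was compared with that of 7132 genes by the Pearson correlation of log2(CPM + 10), a description over groups that share libraries and free RNA. The likest genes were Tfpi2 and Adam12 for Tnc (0.97 each), Col12a1 for Postn (0.98), Gas1 for Thbs2 (0.98), Mxra7 for Sparc (0.98), Clec3b for Lox (0.99) and Serping1 for Loxl2 (0.99). Igf2bp2 was likest to Fn1 (0.91) and Nt5dc2 to Thbs1 (0.90), and P4ha3, Crabp1 and Col12a1 were likest to Lrrc15 (0.78, 0.77 and 0.76). Among the 9 themselves, Postn and Thbs2 (0.95), Tnc and Sparc (0.95) and Tnc and Loxl2 (0.94) were most alike, and Fn1 and Lrrc15 least (0.46). The split set Lrrc15 at 0 CPM in the Lrrc15-negative fibroblasts, so all its correlations here follow in part from the split.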

How the data were processed

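Single-cell RNA was sequenced by the 10x method from 4 tumour samples. The authors deposited 1 matrix of raw UMI counts (55450 genes, 33064 barcodes). The submitters' processing notes name Cell Ranger 2.1.1 and the build mm10 (GRCm38), the study's methods Cell Ranger 3.0.2, and the matrix header version 6.1.2. The series text gives 15603 cells after the filters that here left 32133, and the difference was not resolved. The submitted groups could not be joined to barcode suffixes, so treatments were not compared.

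Counts were summed in Python 3.11.15 (numpy 2.4.6, scipy 1.17.1, pandas 2.3.3, scanpy 1.11.5 for Scrublet). A cell group other than fibroblasts was a gate on the share of UMIs in a short marker list. Cells in the gates of 2 or more lineages (1029, called cells in 2 or more gates) and in no gate were left out of all groups. Macrophages, monocytes and both dendritic groups counted as the same lineage, as did T, NK and B cells, and tumour and keratinocyte-like cells. A cell past related gates was kept in the group set by a fixed rule. Groups of fewer than 20 cells in a library got no level for that library. The planned T cell list also held Cd3e, which was left out after the data were seen because fibroblasts held Cd3e UMIs with hardly any of Cd3d or Cd3g. The gate with Cd3e is an alternative. Intervals are exact Poisson intervals for levels, binomial intervals conditional on the sum for ratios, and exact Clopper-Pearson intervals for shares, all at 95%. With 1 pooled sample, a gene was called from 1.5-fold and no test was run. Gene positions are those of GENCODE vM21 on GRCm38, and promoters are from RefSeq (GRCm38.p6).

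The named genes are the 9 members, up to 6 genes of each list with the largest ratio, and the 3 likest genes of each member. The 10 highest and 10 lowest genes of the split are also named. Spon2 was added after the data were seen. Tools were tested on simulated data. No doublet caller was used in the main values, since Scrublet marked 0.0116% of cells in library 2 and 0 in library 3. The members and lists were chosen with earlier results of these data known. Alternatives covered the filters, gates, depth and libraries.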

Additional observations from a re-analysis of the deposited data

How the results depend on the processing

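No paired analysis was possible because the matrix ties no cell to a sample, so replicate numbers could not be used. For shares, ratios and all-gene counts, 73 alternatives stayed within the counting interval (1.5 times for counts) and 149 did not. Some alternatives could not move a count. The tumour cell comparison used library 1, so leaving out library 2, 3 or 4 repeated it, and the members lay above either CPM minimum. Of 63 alternatives of the counts in the text, 59 stayed within 1.5 times and 4 did not. The 4 were all of the further matrix genes: at a fold of at least 2, 5 were higher and 6 lower, and by the within-library mean, chosen after the data were seen, 5 were higher and 16 lower, against 12 and 10. Leaving out a library in turn gave 7 to 8 genes led by either Lrrc15 group of fibroblasts, Lrrc15 among them. This count was 7 without library 2, when tumour cells led for Fn1. Most UMIs lay in fibroblasts for 6 to 8 genes (6 without library 2, when Tnc had 43.0%). From 3 to 4 genes were at least 1.5-fold higher with Lrrc15, and 8 to 9 were at least 1.5-fold above tumour cells. In neutrophils 3 to 4 genes stayed within 1.5-fold of the collagen ratio. For this count, and for that of genes with most UMIs in fibroblasts, the share of all genes was not counted. There were 26 to 32 co-detected pairs, and 9 to 16 further matrix genes were higher and 10 to 14 lower. With Cd3e in the T cell gate, as planned, 8 genes were led by fibroblasts, 7 had most UMIs there and 3 were higher with Lrrc15. The fibroblast share was then 30.0% for Fn1 and 78.5% for Postn. With a fibroblast gate of 2% only 5 genes had most UMIs in fibroblasts, with Tnc at 40.7% and Loxl2 at 46.9%. The all-gene counts were the least stable: with cells thinned to 1000 UMIs 1160 genes were at least 1.5-fold higher and 1490 lower, against 112 and 132, with a minimum of 5 CPM 243 and 330, with 2 or more Lrrc15 UMIs 170 and 206, and with cells thinned to 10000 UMIs 212 and 218. The cause was not tested. Thbs1 turned to lower within libraries (log2 -0.15) and without library 4 (-0.08). Precision is limited by 124 fibroblasts in library 1, of which 25 lacked Lrrc15, and by few UMIs of Lrrc15.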

Other observations

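In the 1168 cells with 0.3 to 1% of UMIs from the 3 collagen genes, which no gate took, Tnc stood at 792 CPM, close to its level in all fibroblasts (805), whereas Postn was at 158 against 725 and Lrrc15 at 13.5 against 58.7. The same contrast held within libraries 2, 3 and 4, with Tnc at 1197, 1028 and 345 CPM and Postn at 282, 134 and 121. Library 1, with 22 such cells, did not show it. There Tnc stood at 1220 CPM against 1999 in its fibroblasts, and Postn at 1388 against 1958. Decorin was at 2437 CPM and Ptprc at 23.7 in these cells. Their median depth differed widely, with 1408 UMIs in library 2 and 41230 in library 3.

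Among fibroblasts without Lrrc15, 233 cells also lacked any UMI of Dpt, a fibroblast marker, at a median of 5334 UMIs per cell against 27291 in the 1671 that held one. They had Tnc at 1189 against 502 CPM, Lox at 1444 against 966 and Postn at 232 against 554. Within libraries 2, 3 and 4 their Tnc was at 1235, 1554 and 895 CPM, and that of the cells with Dpt at 654, 834 and 220. Lox was lower without Dpt in library 3 (921 against 1081 CPM) and higher in libraries 2 and 4. The part of the depth in these values was not tested, and the split was chosen after the data were seen.

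Cd3e, a gene of the T cell receptor complex, stood at 195.5 CPM in fibroblasts, with Cd3d at 0.979 and Cd3g at 0.907. In T cells the 3 genes stood at 641, 733 and 1263 CPM. The fibroblast level of Cd3e was 17.1, 350, 196 and 37.9 CPM in libraries 1 to 4, and 185 fibroblasts would have passed a T cell gate that included it.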
